A study of Arabidopsis thaliana with 9 samples.

Results

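Root tips of an erf115 mutant of Arabidopsis thaliana were compared with wild-type root tips, to find which transcripts differ when the ERF115 gene is disrupted. The comparison used 6 of the 9 arrays of the series, 3 labelled as erf115 knockout and 3 labelled as Col-0, chosen by their titles. The mutant carried the T-DNA insertion SALK_021981 in ERF115 in the Col-0 background and was represented by this 1 insertion line. The other 3 arrays came from a line that overexpressed ERF115 from the constitutive 35S promoter, and were used for the spread and for values set beside the mutant's. All seedlings were 5 days old and untreated, had grown on nylon mesh, and gave tips 3 mm long that were cut with scalpels. The wild type was Col-0 with no transgene. Each tip held the meristem and the tissue above it, so in these bulk samples fewer cells of a type and less RNA per cell cannot be told apart.

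ERF115 is a transcription factor of the AP2/ERF family, whose members bind DNA through a conserved domain and many of which respond to ethylene, wounding or other stress. In the root it is known for a role at the stem cell niche, where the rarely dividing cells of the quiescent centre lie, and for the replacement of stem cells that have died. In undamaged roots the gene is known to be active in few cells.

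Values were log2 RMA values of 22746 probe sets, a probe set being the group of short probes that reads 1 transcript, after 64 control probe sets had been left out. RMA subtracts background, makes the distribution of probe intensities the same on every array and then combines the probes of a set into 1 value. On this scale a difference of 1 is 2-fold. Array medians were 5.09 to 5.13 in the mutant and 5.04 to 5.11 in wild type. Across probe sets, Pearson correlations were 0.997 to 0.9981 between mutant arrays, 0.9962 to 0.9977 between mutant and wild-type arrays, and 0.996 to 0.9974 between wild-type arrays. The difference between the 3′ and the 5′ control probe set of actin, a sign of RNA degradation, was 4.43 ± 0.10 in the mutant and 4.32 ± 0.14 in wild type (log2, SD, n = 3 each, exact two-sided permutation p = 0.4, where 0.1 is the smallest possible). The same difference for GAPDH was 0.81 ± 0.05 in the mutant and 0.88 ± 0.19 in wild type (exact two-sided permutation p = 0.6).

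No probe set could be named as ERF115, so its level was not analysed here and the labels of the mutant arrays were not checked by it. Marker genes were placed among all probe sets by their mean on the 6 arrays, a rough guide since probe sets differ in how strongly they bind. The 5 core histone genes lay between the 54.6th percentile (HTR12) and the 98.5th (HTB4), the mitotic Aurora kinases between the 54.7th (AUR3) and the 81.1st (AUR1), and the root hair expansin EXPA7 at the 87.9th. The 4 stem cell niche genes lay between the 42.9th and the 50.9th. RCA, which encodes the leaf protein Rubisco activase, lay at the 43.9th percentile, above the lowest niche gene, SCL23. It had 4.40, 4.82 and 4.64 on the mutant arrays and 4.22, 4.36 and 4.47 on the wild-type arrays (difference 0.27, SE 0.11, adjusted p = 0.9996, and 0.17 to 0.38 when 1 array was left out). No gene of the root cap, endodermis or xylem marker lists could be named.

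Few transcripts separated the mutant from wild type. In limma with Benjamini-Hochberg adjustment over all 22746 probe sets, 1 probe set rose and 2 fell at an adjusted p under 0.05, which is 0.0132% of those tested. Of the 3, AT5G35940 has a gene name here and the other 2 have none. At an unadjusted p under 0.05 there were 1033 probe sets, or 4.54%, with 544 higher and 489 lower in the mutant. The 5th and the 95th percentile of the difference of group means were -0.17 and 0.17, the median was 0.00, and 5 probe sets reached a size of 1. The whole range was -1.22 to 1.11. At the median standard error of 0.088, a difference of 0.73, or 1.66-fold, would have been needed to pass the threshold in this fit.

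AT5G35940, which encodes a lectin of the jacalin-related family of carbohydrate-binding proteins, was the named gene that fell. Its values were 8.59, 8.45 and 8.30 on the mutant arrays, against 9.68, 9.67 and 9.29 on the wild-type arrays. All 3 mutant arrays lay below all 3 wild-type arrays, and the gap between the groups was wider than the range within either. The difference was -1.10 (SE 0.11, adjusted p = 0.0117), which is a 2.15-fold lower level in the mutant, with a 95% interval of -1.34 to -0.86. This call was lost in some settings. The adjusted p was 0.13 when only the 6 mutant and wild-type arrays were fitted, 0.10 without wild type replicate 1, 0.11 without wild type replicate 2, 0.12 without mutant replicate 2, 0.096 without mutant replicate 3 and 0.056 without overexpressor replicate 1. It was between 0.0031 and 0.046 without any 1 of the other 4 arrays. The difference itself stayed between -1.23 and -1.03 whichever array was left out.

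Jacalin-related lectins form a large family in Arabidopsis, and several are abundant in roots. A gene counts as measured here where a probe set was named for that gene alone, and 8730 of the 22746 probe sets were unnamed. Listed genes that were not measured may therefore lie among the unnamed probe sets. Of 42 loci of the family, listed by locus after these results had been seen, 19 were measured. The other 18 had a median difference of -0.07, against 0.00 over all loci, and lay between -0.24 and 0.19. Of these 18, 16 were below 0, against 6539 of all 13286 loci. Among the 19, 9 had a mean level under 4 on the 6 arrays. In limma 0 of these 18 passed the threshold and 1 had an unadjusted p under 0.05, and the intervals of 17 lay inside 1.5-fold. JAL34, among the most abundant, averaged 12.38 in the mutant and 12.47 in wild type, a difference of -0.09 (SE 0.07). JAL33 averaged 9.50 in the mutant and 9.55 in wild type, a difference of -0.05 (SE 0.08). AT5G35940 was thus the 1 measured lectin gene with a difference of more than 2-fold.

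The probe set that rose, 245532_at, is unnamed here. It had 5.97, 5.74 and 5.95 on the mutant arrays and 4.85, 4.73 and 4.73 on the wild-type arrays. The groups were far apart, with a difference of 1.11 (SE 0.09, adjusted p = 0.00483), or 2.16-fold. The adjusted p was 0.060 without wild type replicate 2 and 0.062 without mutant replicate 3. The other unnamed probe set, 245757_at, fell to 3.74, 3.62 and 3.599 on the mutant arrays, against 4.23, 4.29 and 4.29 in wild type (difference -0.62, SE 0.07, adjusted p = 0.0317). Its call was the least stable of the 3, since the adjusted p was 0.080 with a prior variance that follows the level, 0.11 with only the 6 arrays, and between 0.073 and 0.33 when any array other than mutant replicate 1 or overexpressor replicate 2 was left out.

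**Figure D1:**
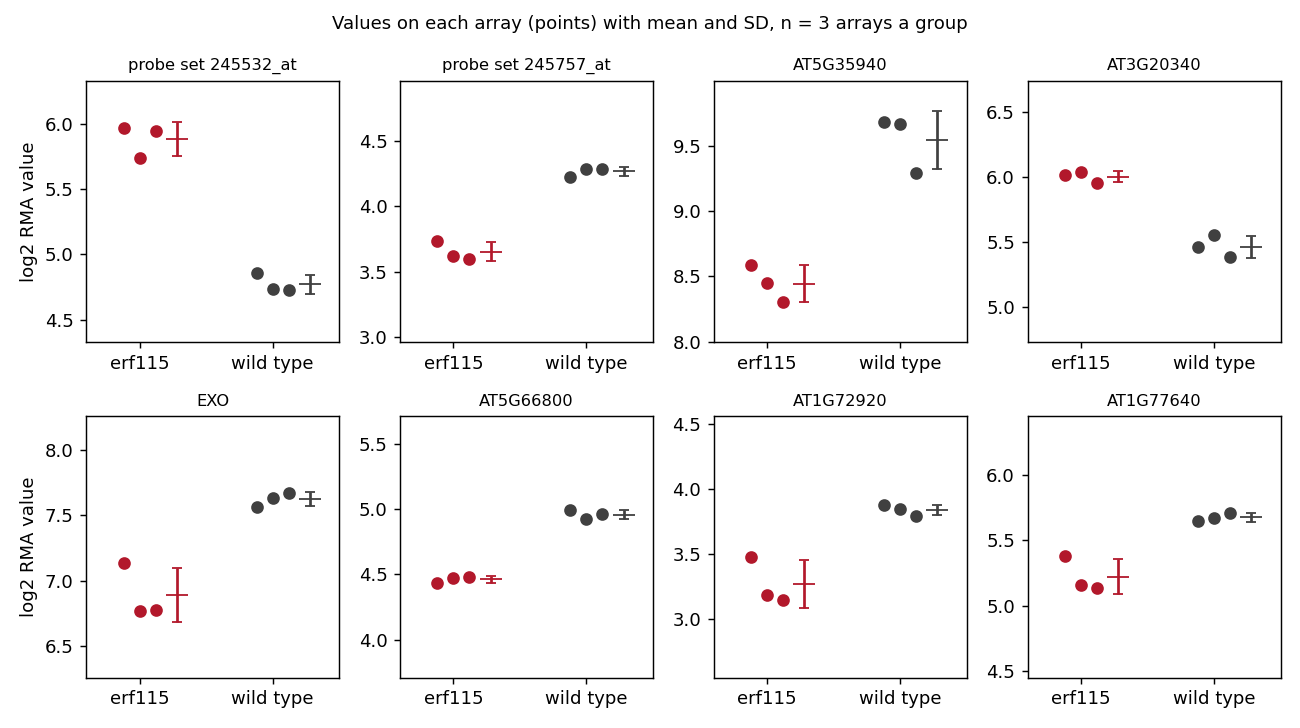
Log2 RMA value (vertical axis, the same span of 2 in each panel) on each of the 3 erf115 arrays (red) and 3 wild-type arrays (grey), with mean and SD beside the points, for the 3 probe sets past the threshold and 5 genes with the next smallest p. The 5 genes were taken among those whose mutant and wild-type arrays do not overlap, so the separation in their panels follows from that choice. For the 3 probe sets past the threshold, all mutant arrays also lie on 1 side of all wild-type arrays. The gap for AT5G35940 is the widest of the named genes.

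The plot of values by array also shows genes that came close to the threshold without passing it. EXO, the EXORDIUM gene, is known for a role in cell expansion promoted by brassinosteroid hormones. It had 7.13, 6.77 and 6.78 in the mutant and 7.56, 7.63 and 7.67 in wild type, a difference of -0.73 (SE 0.10, adjusted p = 0.071). Mutant replicate 1 lay closer to wild type than the other mutant arrays did, and without it the adjusted p was 0.019. EXO also passed with median centring (0.039), quantile normalisation (0.048), either filter on low levels (0.038 and 0.041), a trended prior (0.027) and array weights (0.023).

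AT3G20340 had 6.02, 6.04 and 5.95 in the mutant and 5.46, 5.55 and 5.38 in wild type, a difference of 0.54 (SE 0.07, adjusted p = 0.071). It passed among probe sets above the median level (0.027) and with array weights (0.028). AT5G66800 was even across replicates, with 4.43, 4.47 and 4.48 in the mutant and 4.99, 4.92 and 4.96 in wild type (difference -0.49, SE 0.07, adjusted p = 0.109).

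Transcription factor genes stood among the 12 named genes with the smallest p on either side, taken among genes whose mutant and wild-type arrays did not overlap. Groups of 3 arrays that do not overlap were found for 1854 of all probe sets, or 8.15%, with 953 higher and 901 lower in the mutant. LEP, an AP2/ERF factor known from leaf development, had 7.56, 7.42 and 7.46 in the mutant and 7.19, 7.10 and 7.12 in wild type (difference 0.34, SE 0.07, adjusted p = 0.478). AT1G64380, another AP2/ERF gene, had 4.58, 4.99 and 4.98 in the mutant and 4.24, 4.31 and 4.06 in wild type (difference 0.65, SE 0.15, adjusted p = 0.58). AT1G77640, also of that family, was lower, with 5.38, 5.16 and 5.13 in the mutant and 5.65, 5.67 and 5.71 in wild type (difference -0.45, SE 0.07, adjusted p = 0.207). AT5G52660, of the MYB-like REVEILLE group of clock-related factors, differed by 0.32 (SE 0.07), and AT1G76590, a PLATZ zinc finger gene, by 0.37 (SE 0.08). None of these 5 factors passed the threshold in limma. Each had an unadjusted p under 0.05, which follows from the choice of genes by smallest p.

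The other genes with a higher value in the mutant were of mixed function. AT4G19980 had the largest difference among them, 0.68 (SE 0.15), with 5.13, 5.24 and 5.07 in the mutant and 4.47, 4.72 and 4.22 in wild type. AT1G80570 had 4.60, 4.48 and 4.47 in the mutant and 4.08, 3.87 and 4.06 in wild type (difference 0.51, SE 0.09, adjusted p = 0.219). AT1G11160, related to the regulatory subunit of the microtubule-severing enzyme katanin, differed by 0.42 (SE 0.10), and AT5G33370, a GDSL lipase gene, by 0.32 (SE 0.07). P1R1, AT1G70100 and AT4G01290 differed by 0.47, 0.33 and 0.33. Over the 12, differences were 0.32 to 0.68 and adjusted p-values 0.071 to 0.618.

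On the lower side, RAD9, a component of the DNA damage checkpoint clamp, had 3.03, 3.20 and 3.16 in the mutant and 3.45, 3.501 and 3.56 in wild type (difference -0.37, SE 0.07, adjusted p = 0.339). EMS1, a receptor kinase gene known from anther development, had 2.93, 3.09 and 3.32 in the mutant and 3.82, 3.51 and 4.03 in wild type (difference -0.67, SE 0.14, adjusted p = 0.478). AT1G72920, which encodes a TIR domain protein of the kind found in plant immune receptors, had 3.48, 3.19 and 3.15 in the mutant and 3.87, 3.85 and 3.79 in wild type (difference -0.57, SE 0.09, adjusted p = 0.143). All 3 genes lay below the array medians. AT2G41640, a glycosyltransferase gene, differed by -0.59 (SE 0.12), and AT2G17080, AT5G49280 and AT1G27100 by -0.39, -0.35 and -0.39. AT4G27654 had the widest interval, -1.52 to -0.59 around -1.06. With AT5G35940 left out, adjusted p-values of the lower genes were 0.071 to 0.478.

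**Figure D2:**
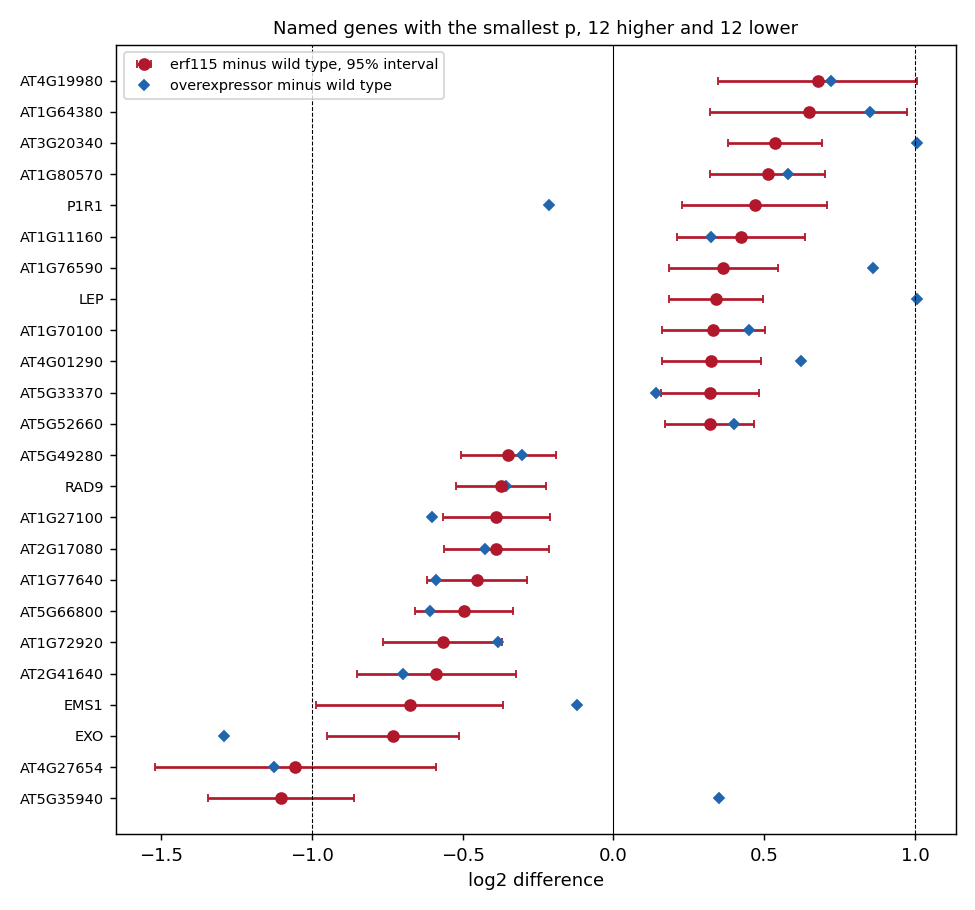
Log2 difference from wild type (horizontal axis) of the 12 higher and 12 lower named genes with the smallest p. Red points with bars are erf115 minus wild type with the 95% interval, blue diamonds are overexpressor minus wild type from the same wild-type arrays, and dashed lines mark 2-fold. The red points lie between -1.10 and 0.68, and the diamonds of AT5G35940 and P1R1 stand on the other side of 0.

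The sizes that the data still allow were small for most transcripts. The 95% interval of the difference, taken for each probe set on its own, lay inside 1.5-fold in both directions for 22166 probe sets, or 97.5%, and inside 2-fold for 22699, or 99.8%. It lay inside 4-fold for all but 1, the unnamed probe set 250500_at, with a difference of -0.12. In an equivalence test, which asks whether a change is shown to be smaller than a given fold, 22401 probe sets passed for 1.5-fold and 22720 for 2-fold at an adjusted p under 0.05 (limma, 2 one-sided moderated tests per probe set). These bounds hold for the values as deposited. RMA compresses differences near background, so a bound on a weakly expressed gene is one on its RMA value. Equal values on at least 2 of the 6 arrays were found for 37.4% of probe sets, counted over all levels together.

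Bounds depended on the level of the transcript. When probe sets were split into 4 equal parts by their mean level, intervals inside 1.5-fold made up 99.5% of the lowest part, 94.8% of the second, 96.6% of the third and 98.9% of the highest. The median half-width of the interval was 0.20, 0.23, 0.20 and 0.17 in these parts. The second part, with levels between 2.88 and 5.10, thus had the widest intervals, but intervals that reached 2-fold were most frequent in the third, with 25 probe sets against 16 in the second.

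Intervals of 47 probe sets reached 2-fold, and these mark where a change of that size remains possible. Of these, 22 have 1 gene, 2 have several and 23 are unnamed here. The interval held 0 for 21 of them. It lay wholly below 0 for 20 and wholly above 0 for 6. Among the 20 below 0, 10 have 1 gene, and 6 of these 10 belong to the list of touch and rapid wound response genes. That list has 11 of the 13286 measured loci. Several of its genes were placed there with low overexpressor values, relative to the same wild-type arrays, already known. The 6 of 10 is therefore a description only.

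**Figure D3:**
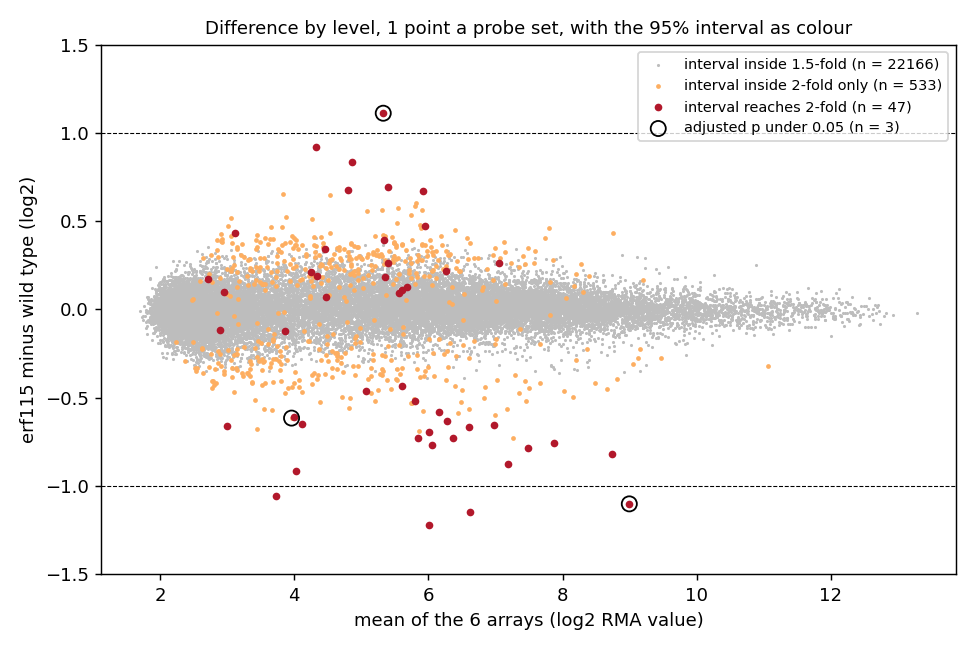
Log2 difference erf115 minus wild type (vertical axis) against the mean level on the 6 arrays (horizontal axis, log2 RMA value), 1 point a probe set. Grey points have a 95% interval inside 1.5-fold, orange points inside 2-fold only, and red points reach 2-fold (n = 47). Circles mark the 3 probe sets past the threshold, and dashed lines mark 2-fold.

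Touch and rapid wound response genes, which plants are known to induce within minutes of bending, touch or cutting, had the largest median difference of the lists with at least 3 measured genes. The list has 25 genes, several of them placed there with their low values in the overexpressor already known, and 11 were measured. Of these, 10 were lower in the mutant and 8 had arrays that did not overlap, against 8.15% of all probe sets. In limma 0 of the 11 passed the threshold, 10 had an unadjusted p under 0.05, and 9 had an interval wholly below 0. The median difference was -0.66, against 0.00 over all loci, and was -0.71 to -0.57 when any 1 array was left out. The low overexpressor values known beforehand were relative to the same wild-type arrays. Choosing genes by them can favour lower values in the mutant comparison too, so these counts and this median are descriptions only.

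Individual arrays differed in this list. The mean level of the 11 genes was 5.995, 5.64 and 5.64 on the mutant arrays, against 6.14, 6.56 and 6.30 on the wild-type arrays. All mutant arrays lay below all wild-type arrays, but mutant replicate 1 lay closer to wild type replicate 1 than to the other mutant arrays. The tips were cut by hand, and the part of handling at harvest in these values was not tested.

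Calcium sensors made up part of the list. AT4G27280, which encodes a small EF-hand calcium-binding protein, had 8.57, 8.24 and 8.18 in the mutant and 8.93, 9.12 and 9.40 in wild type (difference -0.82, SE 0.17, adjusted p = 0.479). The calmodulin-like gene CML39 had 7.16, 6.42 and 6.66 in the mutant and 7.43, 7.77 and 7.67 in wild type (difference -0.87, SE 0.20, adjusted p = 0.58). Mutant and wild-type arrays were apart for both. CML23 had 6.70, 6.73 and 6.54 in the mutant and 7.23, 7.43 and 7.29 in wild type (difference -0.66, SE 0.18, adjusted p = 0.755). CML38 overlapped between the groups, with 5.33, 4.73 and 4.76 in the mutant and 5.21, 5.91 and 5.26 in wild type. CML37, on the touch list and at a low level, had 2.62, 2.53 and 2.58 in the mutant and 2.61, 2.84 and 2.80 in wild type, and the groups overlapped (difference -0.17, SE 0.08). The calmodulin-like genes measured outside the touch list, CML30, CML41, CML42 and CML43, had differences of 0.16, 0.00, 0.02 and 0.10.

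Transcription factors on the list gave both signs. STZ, a zinc finger repressor of stress responses, had 5.96, 5.57 and 5.44 in the mutant and 6.17, 6.60 and 6.27 in wild type (difference -0.69, SE 0.21, adjusted p = 0.835). WRKY53, known from leaf senescence and defence, was the 1 member with a higher value, with 6.09, 5.80 and 5.34 in the mutant and 4.80, 5.42 and 4.92 in wild type (difference 0.69, SE 0.24, adjusted p = 0.939), and its arrays overlapped. The other 6 WRKY genes measured lay between -0.14 and 0.10.

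AT4G29780 had the largest difference of any locus, with 6.68, 5.84 and 5.63 in the mutant and 6.90, 7.65 and 7.04 in wild type (difference -1.15, SE 0.33, adjusted p = 0.785). The spread within each group was also wide, and the interval ran from -1.88 to -0.41. AT4G27654, AT4G27652 and AT3G19680 differed by -1.06, -0.57 and -0.50, each with arrays that did not overlap.

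ORA47, an AP2/ERF factor of the jasmonate response that is not on the list, had 4.08, 3.77 and 3.51 in the mutant and 4.19, 4.78 and 4.32 in wild type (difference -0.65, SE 0.18, adjusted p = 0.76). AT1G72240 was more even, with 6.06, 5.95 and 5.98 in the mutant and 6.77, 6.65 and 6.76 in wild type (difference -0.73, SE 0.16, adjusted p = 0.58). AT5G38700 also differed by -0.73 (SE 0.17). Together with AT4G29780 and STZ, these are the named genes of largest size after those chosen by p and by list.

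**Figure D4:**
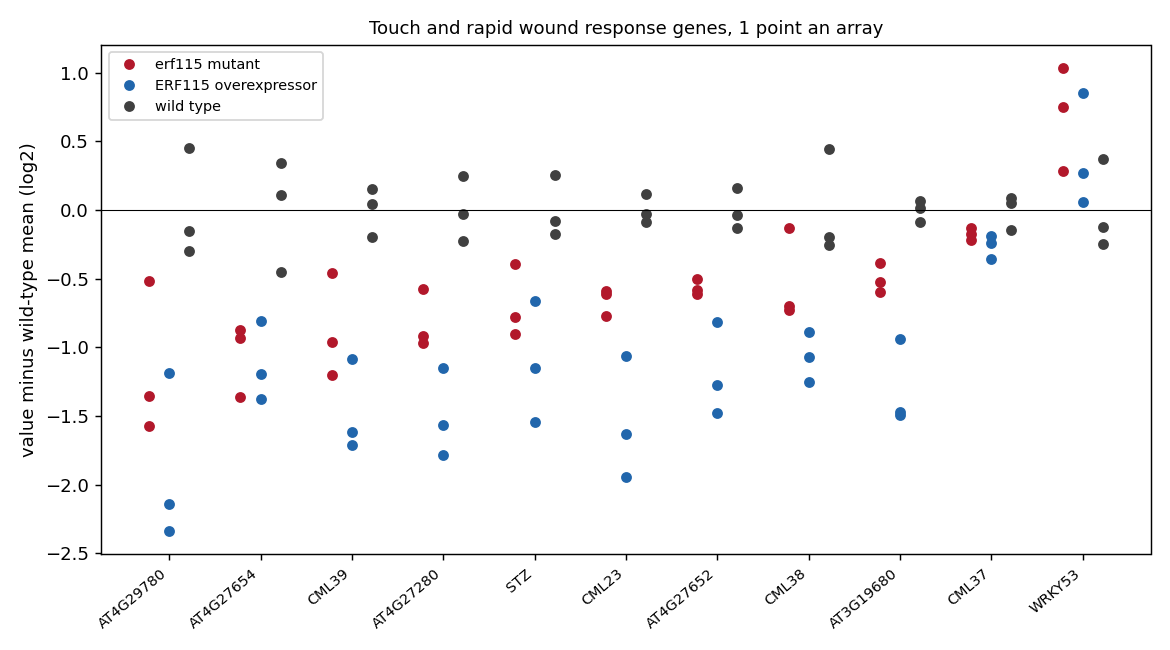
Log2 value minus the wild-type mean (vertical axis) of the 11 touch and rapid wound response genes measured, 1 point an array, for the erf115 mutant (red), the ERF115 overexpressor (blue) and wild type (grey). Mutant points lie below 0 for 10 genes and above it for WRKY53, and most overexpressor points lie lower still.

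Among the stem cell niche, regeneration and cell division genes described next, 0 passed the threshold in limma, and only ERF112 had an unadjusted p under 0.05. The stem cell niche list has 14 genes and 4 could be matched to a named probe set. The rest may lie among the unnamed probe sets and are not described. BBM, a PLETHORA-related AP2 factor, averaged 5.09 ± 0.04 in the mutant and 5.20 ± 0.28 in wild type (difference -0.11, 95% interval -0.42 to 0.19). JKD, a zinc finger factor of the quiescent centre and ground tissue, averaged 5.13 ± 0.12 in the mutant and 5.22 ± 0.06 in wild type (difference -0.09, interval -0.29 to 0.10). AGL42, a MADS box gene used as a quiescent centre marker, differed by 0.00 (interval -0.21 to 0.20), and the GRAS factor gene SCL23 by 0.01 (interval -0.21 to 0.22). All 4 intervals lay inside 1.5-fold.

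Measured were 2 of 8 genes listed as ERF115 and its close relatives, and 3 of 9 wound and regeneration regulators. Of 10 genes of PSK and PSY peptide signalling, 1 was measured. All of these measured genes had intervals inside 1.5-fold, and the listed genes not measured are not bounded. ERF112 had 6.10, 6.04 and 5.85 in the mutant and 5.85, 5.79 and 5.46 in wild type, a difference of 0.30 (SE 0.12, adjusted p = 0.9996, and 0.18 to 0.37 when 1 array was left out), and its lowest mutant array lay just above the highest wild-type array. ERF114 differed by -0.14 (SE 0.14), at a low level of 2.59 in the mutant and 2.73 in wild type. WIND3, of a group of AP2/ERF factors known for wound-induced cell dedifferentiation, differed by -0.12 (SE 0.10) and WIND4 by 0.02 (SE 0.14). WIND4 also had a low level, 2.76 in the mutant and 2.73 in wild type. SCL21, a GRAS factor known for binding PAT1, differed by 0.11 (SE 0.13). PSY1R, a receptor-like kinase of tyrosine-sulfated peptide signalling, differed by 0.10 (SE 0.10).

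Few of the listed cell division genes were measured, 3 of 18 for G2 and M phase and 1 of 12 for S phase. SIM was the 1 gene measured of the 14 on its list. The cell division genes measured all had intervals inside 1.5-fold, and those not measured are not bounded, so cell division as a whole is not bounded either. The mitotic Aurora kinases AUR1, AUR2 and AUR3 differed by 0.06, 0.06 and 0.04, with intervals of -0.09 to 0.22, -0.12 to 0.25 and -0.18 to 0.27. PRL, an MCM7 subunit of the helicase that opens DNA for replication, differed by 0.05 (SE 0.07), and the cell cycle inhibitor SIM by 0.04 (SE 0.09). The 5 core histone genes measured were all slightly lower, between -0.11 and 0.00 with a median of -0.08, and all 5 intervals lay inside 1.5-fold. The centromeric histone HTR12 differed by -0.11 (SE 0.08) and HTB4 by -0.08 (SE 0.08).

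Cell wall genes gave a mixed picture. Of 10 XTH genes, whose enzymes cut and rejoin xyloglucan chains, 7 were lower and the median was -0.06. XTH21 had 7.54, 7.73 and 7.72 in the mutant and 7.95, 8.00 and 7.98 in wild type (difference -0.31, SE 0.07, adjusted p = 0.64). XTH19 had 9.70, 9.68 and 9.75 in the mutant and 9.94, 9.91 and 10.06 in wild type (difference -0.26, SE 0.07, adjusted p = 0.785). Arrays did not overlap for these genes and for XTH18, which differed by -0.18. That is 3 of the 10, against 8.15% of all probe sets. The 3 were named because they had the smallest p of the family, so the lack of overlap is a description only.

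Expansins, which loosen cell walls, had a median of -0.03 over 19 genes, and all 19 intervals lay inside 1.5-fold. EXPB1 differed by -0.19 (SE 0.08) and EXPA7 by 0.13 (SE 0.08). The pectin methylesterase gene PMEPCRF differed by 0.25 (SE 0.15), with a range of 0.11 to 0.39 when 1 array was left out. Over 55 class III peroxidases, which act in the wall and on hydrogen peroxide, the median was 0.01, with 29 higher and 26 lower. Intervals of 48 of these lay inside 1.5-fold, a smaller share than the 97.5% of all probe sets. The peroxidase AT5G64120 had the largest difference of these, 0.39 (SE 0.31). It was 0.18 without mutant replicate 3, 0.19 without wild type replicate 1, 0.25 without wild type replicate 2, 0.66 without mutant replicate 1 and 0.73 without wild type replicate 3.

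The 1 brassinosteroid gene measured was EXO, described above, and its interval lay wholly below 0. The lists held 14 brassinosteroid, 14 auxin, 8 cytokinin and 21 iron deficiency genes, and only the members measured are described. The 6 auxin response genes measured had a median of 0.03, with LBD16, a factor of lateral root initiation, at -0.16 (SE 0.11). WES1, which encodes an enzyme that conjugates auxin, stood at 0.12 (SE 0.09). The cytokinin response regulators ARR15 and RR16 differed by -0.12 (SE 0.13) and 0.01 (SE 0.08). Of 4 iron deficiency genes, F6H1 of coumarin synthesis differed by 0.31 (SE 0.20), or 0.57 without wild type replicate 3 and 0.14 without wild type replicate 2, and the other 3 lay between -0.11 and -0.04. The median was -0.06 over 14 glutathione transferases and -0.03 over 24 cytochrome P450 genes. Many of these genes had low levels. The mean on the 6 arrays was under 4 for 5 of the 6 auxin genes, 2 of the 2 cytokinin genes and 3 of the 4 iron genes. It was under 4 for 6 of the 14 glutathione transferases and 17 of the 24 cytochrome P450 genes. Small differences at such levels are bounds on RMA values. The reference genes TIP41 and SAND differed by 0.01 and 0.00 (SE 0.06 each).

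Outside the touch list, 202 genes of all the lists and families were measured. Of these, 1 fell, AT5G35940, and 0 rose in limma. At an unadjusted p under 0.05 there were 9 of the 202, and 14 had arrays that did not overlap, against 8.15% of all probe sets. Intervals of 189 lay inside 1.5-fold, against 97.5% of all probe sets, and of 199 inside 2-fold, against 99.8% of all. Both shares of the 202 were below those of all probe sets.

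**Figure D5:**
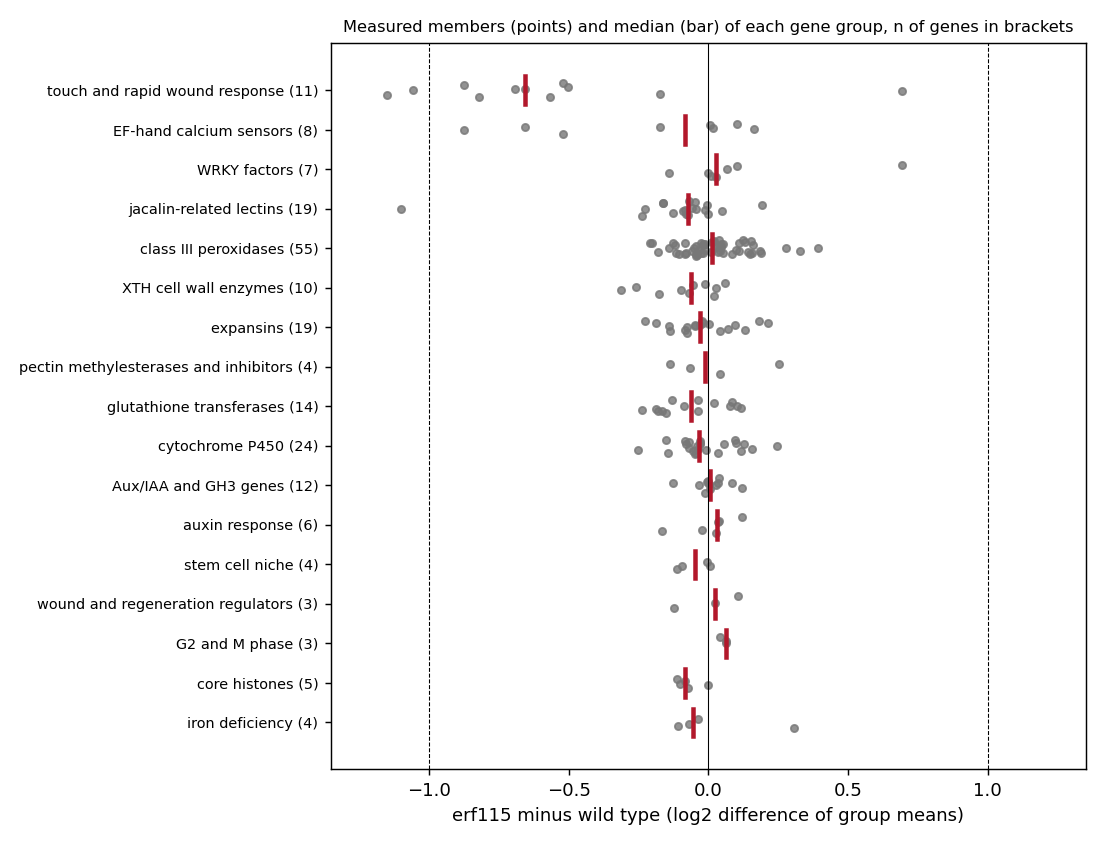
Log2 difference erf115 minus wild type (horizontal axis) of each measured member (grey points) of 17 gene groups, with the group median as a red bar, the number of genes in brackets and dashed lines at 2-fold. The median of the touch and rapid wound response group is -0.66, and the other medians lie within 0.1 of 0. Some genes belong to more than 1 group.

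The overexpressor was set beside the mutant for the same genes. Both were compared with the same 3 wild-type arrays, so their values share those arrays, and the difference between overexpressor and mutant is given as the test of whether the lines differ. Of all probe sets, 5.46% passed in overexpressor against wild type. AT5G35940 differed in sign between the lines, with 9.90, 9.88 and 9.91 in the overexpressor, against 9.68, 9.67 and 9.29 in wild type (difference 0.35, SE 0.11, adjusted p = 0.104). The overexpressor exceeded the mutant by 1.45 (SE 0.11, adjusted p = 8.1e-05).

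Several other genes had the same sign in both lines. EXO differed from wild type by -0.73 in the mutant and by -1.29 in the overexpressor, and the overexpressor minus the mutant was -0.56 (SE 0.10, adjusted p = 0.0114). AT3G20340 differed by 0.54 in the mutant and 1.01 in the overexpressor, and LEP by 0.34 in the mutant and 1.01 in the overexpressor. For both the overexpressor exceeded the mutant, with adjusted p-values of 0.00543 and 0.000642. The unnamed probe set 245532_at differed by 1.11 in the mutant and 1.02 in the overexpressor, and the overexpressor minus the mutant was -0.09 (SE 0.09, adjusted p = 0.709). For 245757_at the differences were -0.62 in the mutant and -1.09 in the overexpressor, and the overexpressor minus the mutant was -0.47 (SE 0.07, adjusted p = 0.00552).

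P1R1 was the other leading gene with opposite signs, but neither line passed the threshold against wild type in limma. The mutant differed from wild type by 0.47 (SE 0.11, adjusted p = 0.617) and the overexpressor by -0.21 (SE 0.11, adjusted p = 0.338). P1R1 had 3.79, 3.94 and 3.95 in the mutant, averaged 3.21 ± 0.14 in the overexpressor, and had 3.65, 3.38 and 3.25 in wild type. The overexpressor minus the mutant was -0.68 (SE 0.11, adjusted p = 0.00775).

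Among the touch and rapid wound response genes, 9 of 11 passed in overexpressor against wild type, against 5.46% of all probe sets, with a median of -1.19. Several of these genes were put on the list with their low values in the overexpressor known, so this count and this median are descriptions only. The list's mean level was 5.04, 5.49 and 5.18 on the overexpressor arrays, below all 3 mutant arrays. The overexpressor lay below the mutant for all 11 genes, and 3 of these differences passed the threshold. AT3G19680 differed from wild type by -0.50 in the mutant and -1.30 in the overexpressor, CML23 by -0.66 in the mutant and -1.55 in the overexpressor, and AT4G27652 by -0.57 in the mutant and -1.19 in the overexpressor. AT4G27654 differed from wild type by -1.06 in the mutant and -1.13 in the overexpressor, and the overexpressor minus the mutant was -0.07 (SE 0.21).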

How the data were processed

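Transcripts of root tips were measured on 1-colour Affymetrix arrays, 1 array a sample and 3 for each of 3 genotypes. The table holds log2 values that the authors deposited, computed by RMA with affy 1.36 according to the submitters' processing notes. The build behind the array design is not given in the sources used here. Probe sets were named with the platform annotation, and loci came from RefSeq's gene table (TAIR10.1): of 22746, 13513 have 1 gene, 503 several and 8730 none, and 13436 matched a locus (13286 loci). Where a locus has several probe sets, the one with the highest mean was used in lists.

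The model, run in limma 3.58.1 under R 4.3.3, gave each genotype a mean and used all 9 arrays. It had 6 residual degrees of freedom and eBayes added 4.49. Adjusted p-values are Benjamini-Hochberg values over all 22746 probe sets. Intervals are 95% intervals from the moderated fit and are not adjusted. The fit was run on simulated data as a check of the code only. The simulated noise was normal and independent between arrays, without the equal values seen in these data. The labels do not say whether replicates were separate cultures, and p-values therefore reflect the spread among these samples only, which may be technical. The number of arrays limits the precision.

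Named were every probe set past the threshold, the 12 higher and the 12 lower genes of smallest p without overlap, up to 3 genes of smallest p per list or family, and the 5 largest differences among other genes. Further members of a list were named to complete it. There were 21 pathway lists of 230 genes (46 measured, 17 lists with a member) and 18 families (13 with a member). Measured means matched to a probe set named for that gene alone, so other listed genes may lie among the unnamed probe sets. Jacalin-related lectins and class III peroxidases were also listed by locus after the values had been seen. The members and lists were chosen with earlier results of these data known. Lists were described without a test. Alternatives changed the normalisation, filter, prior, array weights, arrays used and replicate block. Promoters were not analysed here.

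Same-numbered mutant and wild-type arrays deviated from their group means with correlations of 0.138, 0.12 and 0.0962 across probe sets, so by the limit of 0.1 for every pair the numbers were not taken to pair the samples.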

Additional observations from a re-analysis of the deposited data

How the results depend on the processing

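Counts of 1 probe set higher and 2 lower moved with several choices, and stayed the same with a robust prior. The higher count was 2 with median centring and among probe sets at or above the median level, 0 at a mean level of at least 6, and 3 with array weights. The lower count was 7 with array weights, 0 with only the 6 mutant and wild-type arrays, and 3 with median centring or quantile normalisation. With the replicate block, with all arrays or with only those 6 (an alternative chosen after seeing the data), 1 probe set was higher and 1 lower. The lower one was AT5G35940 (adjusted p = 0.016, and 0.027 with the 6), while 245757_at was at 0.19 and 0.30. Each mutant array correlated best with the wild-type array of its own number, a hint from the data and not from the design. Leaving out 1 array gave 0 to 1 higher and 0 to 5 lower. The bounds moved little: intervals inside 1.5-fold made up 95.1 to 97.7% of probe sets without 1 array.

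The median of the touch and rapid wound response list was -0.74 to -0.66 under the alternatives that keep all arrays of both groups. Filters leave few members in other lists. With probe sets at or above the median level the medians were -0.0949 for the stem cell niche, 0.12 for auxin response, 0.31 for iron deficiency, -0.18 for XTH, 0.0153 for EF-hand, 0.0772 for cytochrome P450 and 0.25 for pectin methylesterases. At a level of at least 6 they were -0.12 for wound and regeneration regulators, 0.12 for auxin response, 0.31 for iron deficiency, -0.18 for XTH, -0.32 for EF-hand, 0.059 for Aux/IAA and GH3, and 0.0624 for cytochrome P450. Without 1 array the medians ranged over -0.0392 to 0.0886 for auxin response, -0.0889 to 0.0311 for expansins, -0.116 to 0.0089 for glutathione transferases, -0.0327 to 0.103 for WRKY factors and -0.121 to -0.0519 for jacalin-related lectins.

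Signs turned only for genes with differences near 0, and the cause was not tested. Median centring gave SCL23 -0.019, WIND4 -0.0043, RR16 -0.0189, EXPA18 -0.0255 and TIP41 -0.0169, quantile normalisation gave SCL23 -0.0237 and EXPA18 -0.0012, and array weights gave WIND4 -0.0594 and SAND 0.028. Without 1 array, differences ranged over -0.267 to 0.0016 for BBM, -0.0203 to 0.0411 for SCL23, -0.0823 to 0.155 for WIND4, -0.0394 to 0.118 for AUR3, -0.006 to 0.0913 for PRL, -0.0588 to 0.13 for IAA29, -0.238 to 0.0237 for ARR15, -0.0262 to 0.0341 for RR16, -0.144 to 0.238 for EXPA18, -0.14 to 0.0353 for OPS, -0.0254 to 0.0353 for TIP41, -0.0267 to 0.0224 for SAND, -0.0851 to 0.0243 for JAL33, -0.0386 to 0.179 for GH3.9 and -0.222 to 0.0423 for PME61.

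AT1G72240 passed the threshold without overexpressor replicate 2 (adjusted p = 0.022), AT1G72920 without mutant replicate 1 (0.02) and with array weights (0.036), and AT5G66800 with array weights (0.044). The small number of arrays and levels close to background limit what could be detected.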

Other observations

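The gene neighbourhood of ERF115 was read from the gene table, by gene order and after the leading genes had been seen. Of the 30 protein-coding genes within 15 places on either side, 11 could be matched to a named probe set. The rest may lie among the unnamed probe sets. EMS1, the receptor kinase gene described above, lies 3 genes away. It differed by -0.67 in the mutant (SE 0.14, 95% interval -0.98 to -0.37, unadjusted p = 0.000609, adjusted p = 0.478, limma). In the overexpressor it averaged 3.67 ± 0.15, against 3.79 ± 0.26 in wild type (difference -0.12, SE 0.14), and the overexpressor minus the mutant was 0.56 (SE 0.14, adjusted p = 0.0584). EMS1 was lower on 3 of 3 mutant arrays than on any wild-type array. This follows from its choice among genes whose mutant and wild-type arrays did not overlap. The other 10 measured neighbours differed by -0.11 to 0.16 in the mutant, among them the calmodulin-binding IQD24 at -0.11 (SE 0.12).

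Genes of the plastid genome gave 69 measured loci, with a median of 0.03, a range of -0.24 to 0.33, and 45 higher and 24 lower in the mutant. In limma 0 of them passed the threshold, 6 had an unadjusted p under 0.05, against 4.54% of all probe sets, and 67 intervals lay inside 1.5-fold, against 97.5% of all.

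Genes whose symbols begin with the same letters were taken as a further description of gene families. There were 36 such groups with at least 7 loci, 487 genes in all. Their medians lay between -0.09 and 0.11. In limma 0 of the 487 passed the threshold and 27 had an unadjusted p under 0.05, against 4.54% of all probe sets. Intervals of 477 lay inside 1.5-fold, against 97.5% of all probe sets, and of 486 inside 2-fold, against 99.8% of all. Among them, the 20 BGLU genes of the beta-glucosidases had a median of 0.00.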
